A study of Homo sapiens with 79 samples.

Results

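Thyroid hormone control was followed in human retinal organoids through 6 genes: the deiodinases DIO3 and DIO2, the binding protein CRYM, the receptors THRA and THRB, and RXRG, a partner of these receptors. The genes were taken by their symbols from the 24414 genes of the count table, and all 6 were present. Retinal organoids are layered aggregates grown from pluripotent stem cells. Per the labels, those measured here all came from human ESC of the CRX-GFP line, an H9 hESC line that carries a GFP reporter of CRX, a photoreceptor transcription factor. Single cells were captured in Fluidigm C1 chips after 60, 90 and 200 days of differentiation, on 1 chip at day 60, 1 at day 90 and 2 at day 200, called 200a and 200b. The 79 samples are columns of these 4 chips, 19 at day 60 and 20 on each of the others. All groups came from 1 line and shared the same additions to the medium from day 18, namely 10% foetal calf serum, T3 at 40 ng/ml, taurine at 0.1 mM and retinoic acid at 0.5 µM. T3 is the active thyroid hormone itself, so every level below was measured in its presence, and no group without it was analysed here.

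Thyroid hormone reaches cells mostly as the prohormone T4. Deiodinases then set the local supply: DIO2 removes an outer-ring iodine from T4 and so makes T3, whereas DIO3 removes an inner-ring iodine and inactivates both T4 and T3. In the cytoplasm, T3 is held by CRYM (µ-crystallin), and in the nucleus it binds THRA and THRB, which act on DNA as dimers with retinoid X receptors such as RXRG. In the vertebrate retina THRB is known for its part in the choice between cone opsins, and THRB and RXRG are used as early cone markers.

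Neither columns nor cells stand for separate cultures, and only day 200 was captured on more than 1 chip. Hence no test was made, and each value is given as a description. The only spread between chips of the same day is that of 200a and 200b. The labels do not say whether these chips held separate cultures, so this spread may hold capture error alone. Levels are CPM, the reads of a gene scaled by all gene reads, summed over the cells of a chip or class, with exact Poisson 95% intervals in parentheses. Shares are of cells with at least 1 read after each cell was thinned to 50000 reads, with exact binomial 95% intervals. Both cover counting error only, since no molecular identifiers tell copies of 1 molecule apart. The chips held 578, 661, 356 and 381 cells in the order day 60, day 90, chip 200a and chip 200b, and this order is kept below. The median reads per cell were 164352, 160343, 251929 and 212201. Scrublet called 22 cells of chip 200a doublets, against 0 to 2 on the other chips. A cell is a column and 1 of 40 barcodes, each barcode recurred in 35 to 59 columns, and no pair of column and barcode occurred more than once.

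Cells were clustered without the 6 genes and without further genes of the pathway, which gave 13 clusters. A Müller glia-like class of 427 cells (131, 124, 101 and 71 per chip) and a cone-like class of 236 cells (46, 102, 61 and 27) were named from marker lists. Both names were checked against other genes. In the cone-like class 5 genes taken as cone genes outside the naming list (PDE6C, CNGB3, OPN1SW, KCNV2 and CRX) summed to 128 CPM at day 60 and to 726, 757 and 938 CPM on the later chips, against 2.52 to 23.8 CPM in the Müller glia-like class. Most of each sum was KCNV2, at 84.9, 607, 627 and 736 CPM. Of the other genes, the blue cone opsin gene OPN1SW had 0 reads in cone-like cells on both day 200 chips, and CNGB3 had 0 at day 60. PDE6C at day 60 had 0.784 CPM in cone-like and 1.04 CPM in Müller glia-like cells, so at day 60 the check was weak. A further cone gene chosen for the check, GNAT2, was not among the genes counted. The sums were set only against Müller glia-like cells, so they do not tell cones from other photoreceptors. In the Müller glia-like class 7 glial genes (among them RLBP1, GLUL and SLC1A3) summed to 287 CPM at day 60, 598 at day 90, 2034 on 200a and 1042 on 200b. The same list gave 234 to 312 CPM in cone-like cells, so at day 60 it did not separate the classes. RLBP1 was at 0.346 CPM in the Müller glia-like class at day 60 and at 111, 514 and 274 CPM afterwards. A list of 6 retinal progenitor genes, SOX2 and RAX among them, summed to 1359 to 1682 CPM in this class on all 4 chips, and to 584 to 845 CPM in cone-like cells. The Müller glia-like class thus also carried progenitor genes, though these were read in cone-like cells too. At day 60 the Müller glia-like class is better read as the cluster led by TF, GPX3 and WIF1 than as mature glia. The GFP-Spike row of the table had 0 reads at day 60 and day 90, where cone-like cells had 299 and 543 reads of CRX, and it was read in 55 of 61 and 24 of 27 cone-like cells on the day 200 chips. Whether this row is the reporter of the line is not stated in the sources used here. A cluster of 213 cells led by VSX1 and one of 59 cells with GNAT1 and NRL among its leading genes both met the study's list for rods, which itself holds VSX1, LHX4 and NEUROD4. They were kept apart after their leading genes were seen, and below only the latter is called rod-like and the former the VSX1 cluster. On the day 200 chips the GFP-Spike row was also read in 18 of 25 and 9 of 11 rod-like cells, and in 28 of 44 and 23 of 46 cells of the VSX1 cluster. The part of these marker levels in the results below was not tested.

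DIO3 is a gene on chromosome 14 of GRCh38 from 101560139 to 101563452 on the plus strand, and DIO2 lies on the same chromosome from 80197526 to 80387757 on the minus strand. Both enzymes depend on a selenocysteine in the active site, which the ribosome inserts at an in-frame TGA codon. The coding sequence around these codons is shown because it is the shared feature of the deiodinases and the reason that genes of selenoprotein synthesis were listed with the pathway. The TGA is in capitals, and the sequences are from GENCODE 44 transcripts on GRCh38, with the codon of DIO3 at chr14:101562004-101562006, and those of DIO2 at chr14:80203112-80203114 and, close to the end of the reading frame, at chr14:80202713-80202715.
DIO3: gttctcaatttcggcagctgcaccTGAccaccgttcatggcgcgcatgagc
DIO2, active site: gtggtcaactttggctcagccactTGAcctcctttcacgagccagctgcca
DIO2, near the end: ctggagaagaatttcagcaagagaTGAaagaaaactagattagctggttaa

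DIO3, the inactivating deiodinase, was high in Müller glia-like cells and low in cone-like cells on all 4 chips. Over all cells of a chip it stood at 44.2 CPM (42.9 to 45.5) at day 60, 42.4 (41.2 to 43.6) at day 90, 126 (124 to 128) on 200a and 62.9 (61.3 to 64.6) on 200b. Across the columns of a chip its lowest, median and highest levels were 6.09, 44.2 and 83.2 CPM at day 60 and 17.3, 37.2 and 106 CPM at day 90. On 200a they were 16.6, 98.9 and 338 CPM, and on 200b 0, 54.1 and 185 CPM. The columns of the 4 chips thus overlapped, and those of chip 200a reached highest. A column without reads allows a level of up to 0.375 to 0.879 CPM, since 3 reads of its total amount to that. The share of cells with a read was nearly the same on the 4 chips, 26.1% (22.6 to 29.9), 28.1% (24.7 to 31.7), 25.3% (20.8 to 30.1) and 21.5% (17.5 to 25.99), and the median level among cells with a read was 93.2, 41.3, 236 and 144 CPM. On the log2(CPM + 1) scale used for all differences here, day 200 lay above day 60 by 1.00 ± 0.70 (SD, n = 2 chips), with 1.49 on 200a and 0.50 on 200b.

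In the Müller glia-like class DIO3 stood at 111 CPM (106 to 115) at day 60, 128 (123 to 134) at day 90, 344 (337 to 352) on 200a and 163 (156 to 169) on 200b. Its share of cells there was 48.9%, 51.6%, 56.4% and 43.7%. In the cone-like class it stood at 4.80, 6.78, 20.3 and 7.47 CPM, with 8.70%, 10.9%, 9.84% and 7.41% of the cells. The ranges of the classes over the 4 chips did not overlap, and chip 200a was the highest in both. The chip 200a level coincided with the highest sum of the 7 glial genes, 2034 CPM. Cone-like minus Müller glia-like differences were -4.27, -4.05, -4.02 and -4.27, or -4.15 ± 0.14 (SD, n = 4 chips). The SD over the chips also holds differences between days. Outside these classes DIO3 was high in the unnamed cluster of 98 cells led by ABCB1, at 160, 80.8, 402 and 138 CPM, which had 5 markers of the Müller glia list but none among its 10 leading genes. Cluster 7-like cells (73 cells, led by AOC2 and CPAMD8) had 48.0 CPM at day 60, 130 at day 90 and 120 on 200b, and mitotic-like cells had 59.1 CPM at day 60 and 71.6 at day 90. At the other end, extracellular matrix (ECM)-like cells had 17.3 CPM at day 60, 0.348 at day 90 and 0 reads on 200b, which allows up to 0.440 CPM.

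An antisense gene, DIO3OS, overlaps DIO3 by 137 exonic bases on the opposite strand. The counting parameters name no strand, so how reads of the overlap were counted is not known here. DIO3OS itself followed the same classes, at 51.4, 62.2, 116 and 53.1 CPM in Müller glia-like cells and 4.12, 0.648, 14.2 and 0.896 CPM in cone-like cells. Over 33 sums of a class on a chip with at least 20 cells, log2 levels of DIO3 and DIO3OS had a Pearson correlation of 0.74, which is given as a description since the sums share chips and libraries.

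DIO2, the activating deiodinase, was sparse and lay mainly outside both the cone-like and the Müller glia-like class. Over all cells it stood at 6.54 CPM (6.06 to 7.05), 7.39 (6.90 to 7.90), 17.1 (16.3 to 18.0) and 25.2 (24.2 to 26.3). Its columns had medians of 0.184, 1.95, 0.0795 and 20.3 CPM and reached 33.5, 38.9, 101 and 98.7 CPM, with 9 of 19, 6 of 20, 10 of 20 and 3 of 20 columns at 0. Chip 200b therefore differed from the other chips in how many columns held the gene, while the highest columns of both day 200 chips were alike. Cells with a read made up 1.90% (0.954 to 3.38), 4.43% (2.98 to 6.30), 3.93% (2.17 to 6.51) and 9.19% (6.48 to 12.5). Day 200 lay above day 60 by 1.53 ± 0.38 (SD, n = 2 chips), with 1.27 and 1.80 on chips 200a and 200b.

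The highest DIO2 levels were in 4 small clusters, and several rested on a single cell. ECM-like cells, with collagen genes in the lead, had 83.5 CPM at day 60 from 4 cells, 39.1 at day 90 from 3 cells, 1 of which held 84.9% of the reads, and 84.5 on 200b from 6 cells. The unnamed cluster led by KCNIP4 and WT1 had 74.3 CPM at day 90 from 1 cell and 99.0 on 200b from 12 of 27 cells. The ABCB1 cluster had 0 reads at day 60, which allows up to 1.06 CPM, then 23.2, 111 and 42.95 CPM from 6, 2 and 11 cells, and 1 cell held 80.9% of the reads on 200a. Cluster 8-like cells, led by GFAP, had 51.1 CPM at day 60 from 1 cell and 30.99 on 200b from 2 cells. Müller glia-like cells had 3.31, 8.72, 14.2 and 11.6 CPM, and a single cell held 98.5%, 90.6%, 38.2% and 85.9% of these reads. Cone-like cells had 1, 9, 4 and 2 reads in all, or 0.0980 to 0.448 CPM. The difference of -2.91 ± 0.72 (SD, n = 4 chips) between cone-like and Müller glia-like cells had the same sign on each chip, yet it was -1.31 without the cell with the most reads of each class and chip. By the share of cells the classes were not distinguishable at this depth, with 2.13% (0.694 to 4.90) of cone-like and 2.35% (1.13 to 4.28) of Müller glia-like cells.

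CRYM, which holds T3 in the cytoplasm, showed the largest difference between the days among the 6 genes. It is located on chromosome 16 from 21238874 to 21303083, minus strand. Over all cells it stood at 19.8 CPM (18.9 to 20.6), 49.5 (48.2 to 50.8), 170 (168 to 173) and 144 (141 to 146). Its columns ran from 0 over a median of 18.9 to 46.3 CPM at day 60 and from 5.63 over 45.3 to 124 CPM at day 90. On 200a they ran from 0 over 137 to 407 CPM and on 200b from 51.9 over 131 to 257 CPM. Every column of chip 200b thus lay above the highest column of day 60, and on 200a 1 column without reads was the exception. The share of cells was 10.4% (8.02 to 13.2), 17.1% (14.3 to 20.2), 21.6% (17.5 to 26.3) and 32.5% (27.9 to 37.5). Day 200 lay above day 60 by 2.92 ± 0.17 (SD, n = 2 chips).

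In Müller glia-like cells CRYM stood at 36.2 CPM (33.7 to 38.96) at day 60, 128 (123 to 134) at day 90, 408 (401 to 416) on 200a and 312 (303 to 321) on 200b. The share of these cells with a read was 19.8% (13.4 to 27.7), 32.8% (24.6 to 41.9), 43.6% (33.7 to 53.8) and 64.8% (52.5 to 75.8), so both the level and the share were highest at day 200. Cone-like cells had 3 reads at day 60, all in 1 cell, and 28.9, 8.35 and 16.7 CPM afterwards. The classes differed by -4.14 ± 1.45 (SD, n = 4 chips), with -4.85, -2.11, -5.45 and -4.14. CRYM was also high in the ABCB1 cluster, at 112, 150, 265 and 158 CPM, and in the KCNIP4 cluster, at 184 CPM at day 90 and 414 on 200b. The unnamed cluster of 327 cells led by GDF15, ANGPTL4 and other stress genes had 0.226 and 3.36 CPM at day 60 and day 90, and 99.7 and 107 CPM on the day 200 chips. Retinal ganglion cell (RGC)-like cells had the lowest mean level over chips, with 9.03, 4.31, 0.937 and 2.03 CPM.

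**Figure D1:**
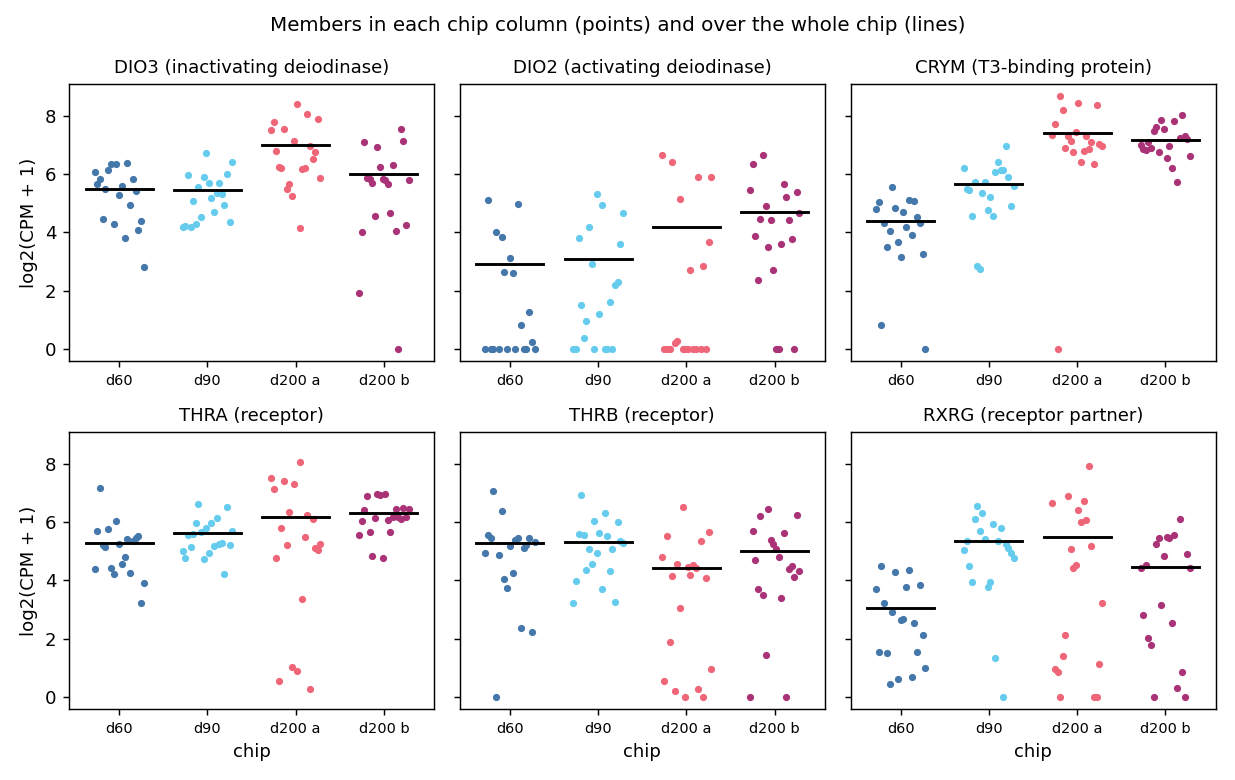
Level of each gene as log2(CPM + 1) on the vertical axis against the chip. Points are the columns of a chip (19 at day 60 and 20 on each other chip) and black lines the level over all cells of the chip. CRYM lines go from 19.8 CPM at day 60 to 170 and 144 CPM on the day 200 chips, whereas DIO2 has many columns at 0.

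THRA, a receptor found in most tissues, differed least between the classes. The gene lies on chromosome 17 from 40058290 to 40093867 on the plus strand, and its exons share 473 bases with NR1D1 on the opposite strand. Counts per gene also join its splice forms, of which only some bind T3. NR1D1 was low, at 4.03 CPM over all cells. THRA stood at 37.9 CPM (36.7 to 39.1), 48.1 (46.9 to 49.4), 70.7 (69.05 to 72.4) and 77.7 (75.8 to 79.5). Its columns had lowest, median and highest levels of 8.28, 36.3 and 144 CPM at day 60. They were 17.4, 42.3 and 98.2 CPM for the day 90 chip, 0.198, 40.5 and 264 CPM on 200a and 26.5, 71.4 and 125 CPM on 200b. The columns of chip 200a spread most, and all chips overlapped. Although both day 200 chips lay above day 60 by 0.95 ± 0.09 (SD, n = 2 chips), the share of cells was 18.3% (14.4 to 22.7) on 200a and 38.3% (33.4 to 43.4) on 200b, on either side of 23.4% (19.96 to 27.02) at day 60. Müller glia-like cells had 46.6, 64.6, 67.9 and 70.1 CPM and cone-like cells 47.9, 33.3, 35.3 and 48.2 CPM. The difference was -0.59 ± 0.46 (SD, n = 4 chips), close to 0 at day 60 with 0.04 and below 0 on the other 3 chips. Over the classes the mean level of THRA on the chips ran from 35.8 CPM in mitotic-like cells to 90.3 CPM in the KCNIP4 cluster. The former mean holds only day 60 and day 90, and the latter 5.34 CPM at day 90 and 175 CPM on 200b. The 17 mitotic-like cells of the day 200 chips together had 100 CPM, so this order depends on the chips that entered each mean.

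THRB was above its Müller glia-like level in cone-like cells on each chip, and within cone-like cells its level was highest at day 60. The gene lies on chromosome 3 from 24117153 to 24495756 on the minus strand. Over all cells it stood at 37.7 CPM (36.5 to 38.9), 38.4 (37.3 to 39.5), 20.7 (19.8 to 21.6) and 31.1 (30.0 to 32.3), and its columns had medians of 34.9, 35.4, 16.8 and 23.2 CPM with highest levels of 133, 120, 89.8 and 85.7 CPM. The lowest columns were at 0 on 3 chips and at 8.27 CPM at day 90, so the columns of all chips overlapped. Day 200 minus day 60 was -0.55 ± 0.40 (SD, n = 2 chips). In cone-like cells THRB stood at 175 CPM (167 to 183), 103 (98.9 to 108), 32.6 (30.0 to 35.3) and 102 (94.6 to 110), with reads in 60.9% (45.4 to 74.9), 37.6% (28.2 to 47.8), 16.4% (8.15 to 28.1) and 33.3% (16.5 to 53.96) of the cells. Thus both day 200 chips lay below day 60 in this class, with differences of -2.39 on 200a and -0.77 on 200b, and chip 200a differed from chip 200b by more than the counting intervals. On 200b 1 of the 27 cone-like cells held 49.9% of the reads.

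Müller glia-like cells had THRB at 34.0, 29.2, 21.5 and 37.3 CPM, and 20.6%, 13.9%, 9.90% and 22.5% of these cells had a read. The cone-like level was above the Müller glia-like level on each chip, by 2.33, 1.79, 0.58 and 1.43, or 1.53 ± 0.73 (SD, n = 4 chips). On 200a, where the difference was smallest, the intervals of the shares of cells overlapped. The VSX1 cluster had THRB at 71.97 and 46.1 CPM at day 60 and day 90 and at 7.86 and 0.434 CPM on the day 200 chips, where 2 and 3 cells held all reads. The rod-like class, with 0 cells at day 60, had 16.5, 36.1 and 39.7 CPM on the other chips, from 2, 5 and 2 cells. On 200a its level was above the cone-like level of 32.6 CPM, but the intervals of the shares overlapped. These were 20.0% (6.83 to 40.7) of rod-like and 16.4% (8.15 to 28.1) of cone-like cells.

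RXRG was highest in cone-like cells. The gene lies on chromosome 1 from 165400922 to 165445355 on the minus strand. Over all cells it stood at 7.35 CPM (6.84 to 7.88) at day 60, 39.7 (38.5 to 40.9) at day 90, 43.9 (42.6 to 45.2) on 200a and 20.9 (20.0 to 21.9) on 200b. Its columns had lowest, median and highest levels of 0.365, 5.28 and 21.5 CPM at day 60. They were 0, 35.2 and 93.9 CPM for the day 90 chip, 0, 21.2 and 245 CPM on 200a and 0, 20.4 and 67.95 CPM on 200b. The median column of day 90 lay above the highest column of day 60, and those of the day 200 chips lay just below it. Day 200 lay above day 60 by 1.91 ± 0.73 (SD, n = 2 chips), with 2.43 and 1.39, and day 90 by 2.29.

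In cone-like cells RXRG stood at 44.9 CPM (40.9 to 49.2) at day 60, 147 (142 to 153) at day 90, 184 (178 to 191) on 200a and 185 (175 to 195) on 200b. The day 200 chips agreed closely in this class, at 2.01 and 2.02 above day 60. The share of cone-like cells with a read was 43.5% (28.9 to 58.9), 58.4% (48.2 to 68.1), 32.8% (21.3 to 46.002) and 48.1% (28.7 to 68.05), so the higher level at day 200 was not matched by a higher share. Müller glia-like cells had 3.85, 9.87, 22.8 and 9.15 CPM, of which 1 cell per chip held 62.8% to 77.2%, and 3.82% to 7.38% of the cells had a read. The classes differed by 3.24, 3.77, 2.96 and 4.19, or 3.54 ± 0.55 (SD, n = 4 chips). The VSX1 cluster lay between them, at 12.2, 37.0, 24.1 and 20.8 CPM, and rod-like cells had 125 CPM at day 90 but 1.31 CPM on 200a and 0 reads on 200b. The ABCB1 cluster, in which DIO3 and CRYM were high, had RXRG at 0 to 3.63 CPM.

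**Figure D2:**
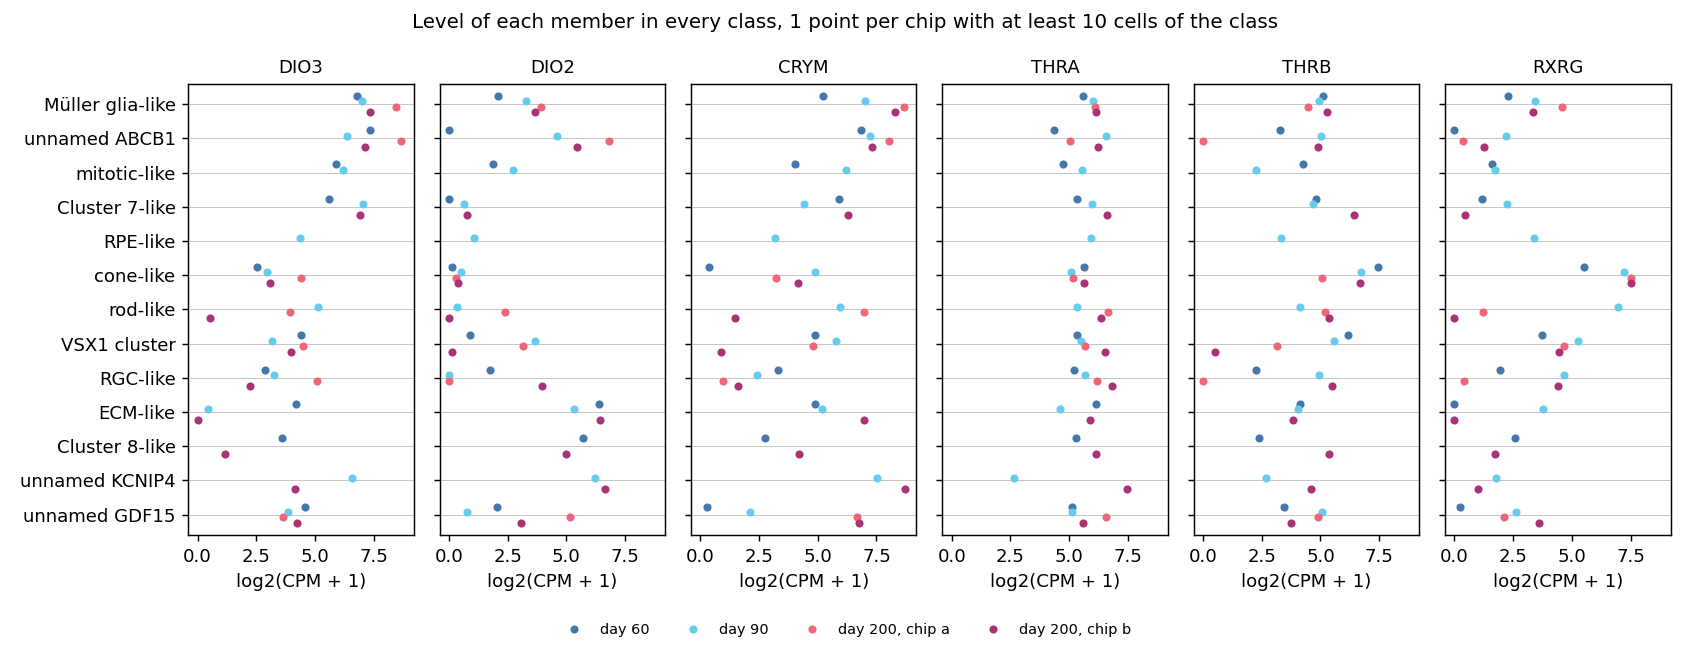
Level of each gene as log2(CPM + 1) on the horizontal axis in every class, with 1 point for each chip that held at least 10 cells of the class. DIO3 and CRYM lie to the right in Müller glia-like cells and in the ABCB1 cluster, RXRG in cone-like cells, THRB there except on 200a, and DIO2 in ECM-like, Cluster 8-like, ABCB1 and KCNIP4 cells.

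The promoters of RXRG and THRB, whose levels were above those of Müller glia-like cells in cone-like cells on each chip, were read to show where recognisable letters lie. Each covers 250 bases before to 50 bases after a start site in RefSeq on GRCh38.p14, and 2 motifs were searched on both strands: AGGTCA, the 6-base unit bound by nuclear receptors, and TAATCC, bound by homeodomain factors such as CRX and OTX2. They share no overlap with each other in these windows. The RXRG promoter, chr1:165445077-165445376 on the minus strand, holds AGGTCA on its opposite strand, shown in capitals as TGACCT, starting 231 bases before the start site. Of 2 THRB start sites, the one at chr3:24494801-24495100 on the minus strand holds TAATCC on its opposite strand, shown in capitals as GGATTA, at base 34 after the start. Neither motif was in the window of the other THRB start or in those of DIO3, DIO2 and THRA, and the window of CRYM was not analysed here. Of all 35116 promoters in the same table, 13.8% hold AGGTCA and 6.36% TAATCC on either strand, so both matches are frequent and stand only as a description of the letters.
RXRG: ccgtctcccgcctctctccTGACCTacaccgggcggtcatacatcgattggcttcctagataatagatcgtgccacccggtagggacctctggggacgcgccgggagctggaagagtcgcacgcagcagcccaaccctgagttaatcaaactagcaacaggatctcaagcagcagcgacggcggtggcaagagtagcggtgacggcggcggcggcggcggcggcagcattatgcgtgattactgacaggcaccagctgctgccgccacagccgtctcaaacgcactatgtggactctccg
THRB: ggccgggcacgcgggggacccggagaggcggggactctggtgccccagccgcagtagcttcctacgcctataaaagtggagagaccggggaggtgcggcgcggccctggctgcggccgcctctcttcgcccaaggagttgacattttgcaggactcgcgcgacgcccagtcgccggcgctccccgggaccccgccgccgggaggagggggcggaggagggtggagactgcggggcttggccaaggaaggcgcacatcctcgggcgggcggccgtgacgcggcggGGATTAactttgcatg

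Between cone-like and Müller glia-like cells 4 of the 6 genes differed by a rule of size, while THRA and THRB did not meet it. A gene was counted as higher or lower when log2(CPM + 1) differed by at least 2-fold on each chip of a comparison, among 12347 genes with at least 5 CPM over all cells. In cone-like against Müller glia-like cells, 1 of the 6 genes, RXRG, was higher on all 4 chips, where 2.95% of all genes tested were. The lower genes were 3 of the 6, DIO3, DIO2 and CRYM, against 4.65% of all genes tested. By their mean differences DIO3 ranked 15th and CRYM 16th of 12347 genes from the Müller glia-like side, and RXRG 111th from the cone-like side. THRB missed the count only on 200a, where it differed by 0.58. The median difference of all genes tested was -0.11. The classes were built from other genes of the same cells, so these counts describe the classes and are no independent test.

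**Figure D3:**
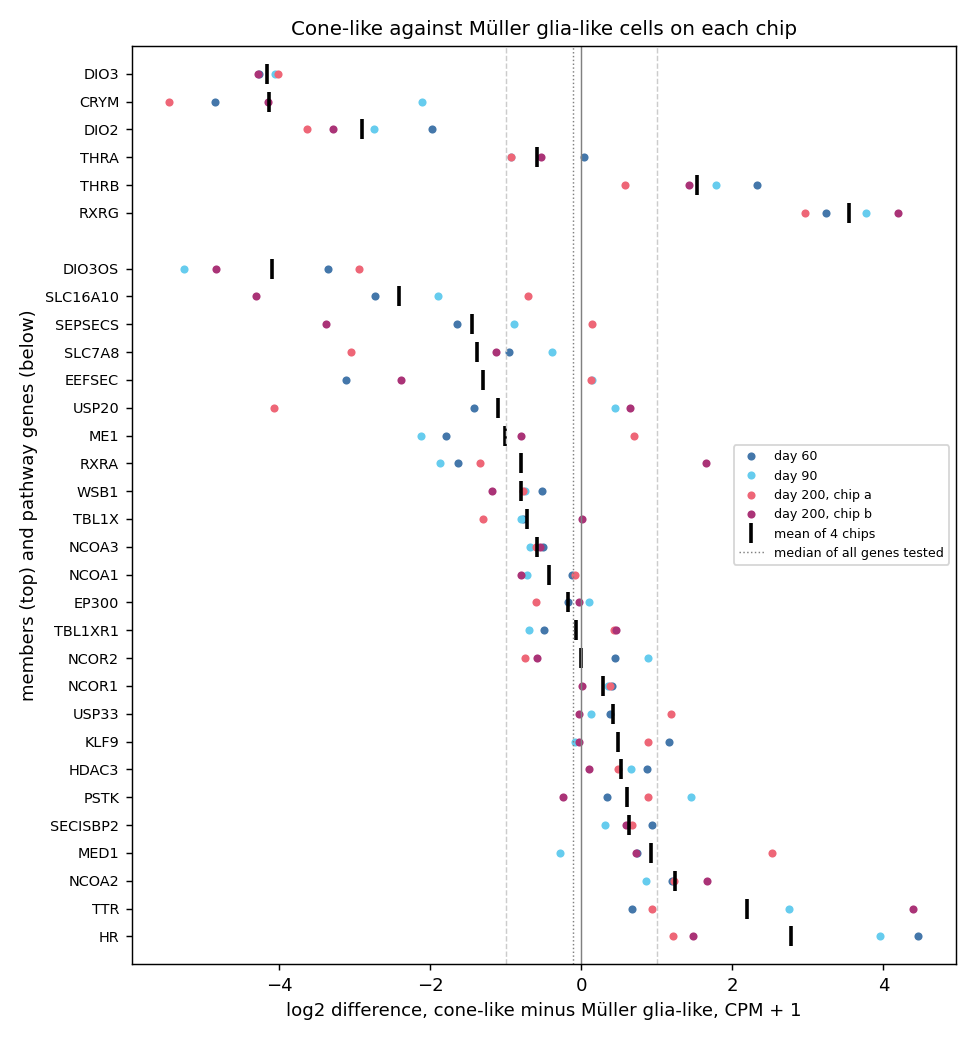
Difference in log2(CPM + 1) between cone-like and Müller glia-like cells on the horizontal axis, for the 6 genes at the top and 25 other pathway genes below. Coloured points are the 4 chips and black ticks their means, and dashed lines mark 2-fold. DIO3 points lie between -4.27 and -4.02 and RXRG points between 2.96 and 4.19. Among the pathway genes only HR and DIO3OS pass 2-fold on all 4 chips. Means of others also lie away from 0, such as SLC16A10 at -2.41 and TTR at 2.19, with chips that differ widely.

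**Figure D4:**
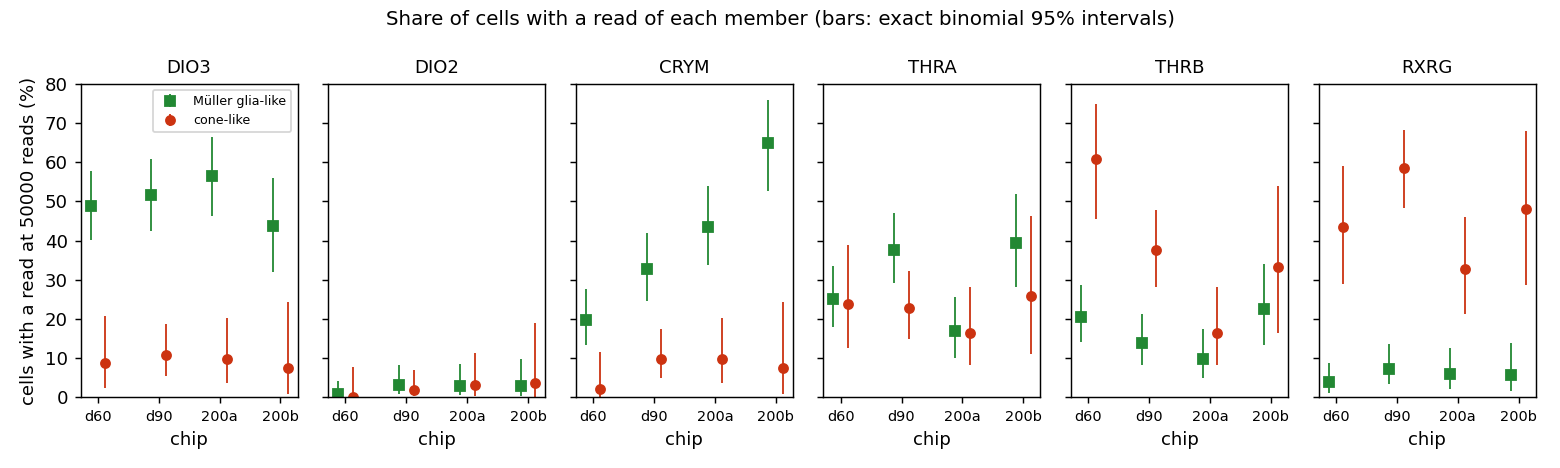
Share of cells with a read of each gene after thinning to 50000 reads, in percent, on each chip for Müller glia-like (squares) and cone-like cells (circles), with exact binomial 95% intervals. For CRYM the Müller glia-like share goes from 19.8% at day 60 to 64.8% on 200b, and for DIO2 the shares of both classes stay below 4%.

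Over time, 3 of the 6 genes, DIO2, RXRG and CRYM, were at least 2-fold higher on both day 200 chips than at day 60 over all cells, where 7.67% of all genes tested were, and none was lower, against 3.26%. RXRG and CRYM were also 2-fold higher at day 90, a rule that 10.6% of all genes met on its single chip, and none was lower, against 6.81%. Within the Müller glia-like class the genes higher at day 200 were again DIO2, RXRG and CRYM, with 9.01% of all genes higher and 7.99% lower. There 1 cell held 98.5%, 38.2% and 85.9% of the DIO2 reads at day 60, on 200a and on 200b. For RXRG it was 62.8%, 70.5% and 64.1%, so the differences of both genes rested on few cells. CRYM differed there by 3.26 ± 0.27 and DIO3 by 1.09 ± 0.76 (SD, n = 2 chips each). Within the cone-like class RXRG and CRYM were higher, against 10.1% of all genes, and none was lower, against 12.4%. CRYM there rested on 3 reads at day 60. THRB differed by -1.58 ± 1.15 in cone-like cells and by -0.25 ± 0.54 in Müller glia-like cells (SD, n = 2 chips each). Shares of classes also differed between chips, and over all cells a different mix of classes and a different level per cell cannot be told apart.

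In single cells the 6 genes were counted together. At 50000 reads, 43 of 235 cone-like cells and 75 of 425 Müller glia-like cells had no read of any of them, 106 and 172 cells had reads of 1 gene, and 86 and 178 cells had reads of 2 or more. In cone-like cells 85 had THRB, 112 had RXRG and 36 had both, which is 15.3% (11.0 to 20.6) of the class. The cells with both made up 42.4% of those with THRB, beside RXRG in 47.7% of all cone-like cells. They made up 32.1% of those with RXRG, beside THRB in 36.2% of all cone-like cells. In Müller glia-like cells 215 had DIO3, 156 had CRYM and 85 had both, or 20.0% (16.3 to 24.1). On the 4 chips this share was 9.92%, 17.2%, 26.7% and 33.8%. On 200b 24 of the 31 Müller glia-like cells with DIO3 also had CRYM, compared with 13 of 64 at day 60, beside CRYM in 64.8% and 19.8% of all Müller glia-like cells on these chips. Both deiodinases were read in the same cell in 27 of 1970 cells, 8 of them Müller glia-like and 11 in the ABCB1 cluster. In the cone-like class 5 of 235 cells had DIO2 and 23 had DIO3, too few to say how often both occur together, and 0 had both. The ABCB1 cluster had the most genes per cell, with a mean of 1.72 of 6, against 1.41 in Müller glia-like and 1.26 in cone-like cells.

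Compared per length, as RPKM, which divides CPM by the exon length in kilobases (exons of GENCODE 44), the levels of the genes were set side by side within a class. The length joins the exons of all transcripts of a gene, and whether reads cover transcripts evenly on these chips was not tested. The order of the genes thus depends on this divisor. By mean CPM over the chips CRYM had 221 and DIO3 186 in Müller glia-like cells, and RXRG had 140 and THRB 103 in cone-like cells. In Müller glia-like cells DIO3 had 89.0 ± 51.3 RPKM and CRYM 61.6 ± 47.1 (SD, n = 4 chips), and their ranges overlapped. THRA followed with 8.50 ± 1.46, RXRG with 4.24 ± 2.99, THRB with 2.78 ± 0.63 and DIO2 with 1.28 ± 0.63 RPKM. The range of RXRG overlapped with those of THRA, THRB and DIO2, so its place is not settled, whereas DIO3 and CRYM lay above these 4 genes on every chip. In cone-like cells RXRG had 52.2 ± 24.5 RPKM, followed by THRB with 9.41 ± 5.29, THRA with 5.62 ± 1.09, DIO3 with 4.70 ± 3.38 and CRYM with 3.78 ± 3.41 RPKM. The ranges of THRB, THRA, DIO3 and CRYM overlapped, and on 200a DIO3 was the highest of them. DIO2 had 0.0361 ± 0.0198 RPKM in these cells, below the other genes on every chip. In the order of the classes by CPM, each class overlapped with its next neighbour in range over the chips for all 6 genes.

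Of 33 other genes of thyroid hormone transport, selenoprotein synthesis, cofactors and response, 29 were in the table and 25 passed the minimum of 5 CPM. SLCO1C1, DIO1, RXRB and NRGN were not analysed here. Between cone-like and Müller glia-like cells 1 of the 25 was higher, HR, and 1 was lower, DIO3OS, where 2.95% and 4.65% of all genes tested were, so the list as a whole lay near the background. HR, a corepressor gene known to respond to T3, had 23.1, 32.5, 79.97 and 26.9 CPM in cone-like cells and 0.0988, 1.15, 33.9 and 9.02 CPM in Müller glia-like cells. The transporter gene SLC16A10 (MCT10) was below its Müller glia-like level in cone-like cells on each chip, by -2.41 ± 1.51 (SD, n = 4 chips), but not by 2-fold on every chip. Among the cofactors the corepressor NCOR1 differed by 0.29 ± 0.19, the coactivator NCOA2 by 1.24 ± 0.33 and NCOA3 by -0.58 ± 0.08. SECISBP2, which reads the selenocysteine signal of deiodinase mRNAs, differed by 0.63 ± 0.25. The median of all genes tested was -0.11 in this comparison.

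Between the days, 3 of the 25 genes were higher on both day 200 chips, namely TTR, KLF9 and HR, and none was lower, against 7.67% and 3.26% of all genes tested. KLF9, a transcription factor gene that T3 is known to induce, stood at 10.8 CPM at day 60 and at 54.1, 67.9 and 59.7 CPM on the later chips. It was near 0 difference between the classes on day 90 and chip 200b, but lay higher at day 200 in both: from 2.17 to 35.2 and 56.9 CPM in Müller glia-like cells and from 6.08 to 66.2 and 55.8 CPM in cone-like cells. HR stood at 5.02, 17.2, 38.9 and 13.4 CPM over all cells. TTR, which carries T4 and is also made by the retinal pigment epithelium (RPE), was highest at day 90, at 296 CPM, against 11.5 at day 60 and 51.1 and 27.3 at day 200. The day 90 chip held 78 of the 97 RPE-like cells, whose part in the TTR level was not tested. Within Müller glia-like cells SLC7A8, KLF9 and HR were higher at day 200 and EEFSEC and MED1 lower, against 9.01% and 7.99% of all genes tested. Within cone-like cells TTR, KLF9 and ME1 were higher and MED1 lower, against 10.1% and 12.4%. These counts of 1 to 3 in 25 genes are not far from the background.

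The genes whose log2 levels over the 33 sums of class and chip were most like each of the 6 were found by Pearson correlation, given without a test. For DIO3 they were HMX1 (0.83), LRP2 (0.80) and MSI2 (0.80), and for DIO2 INHBA (0.84), LRP1 (0.78) and IFI16 (0.75). CRYM was most like OAF (0.75), SLC16A1 (0.71) and SERPING1 (0.69), and THRA most like SBSPON (0.73), GNG7 (0.73) and DMD (0.66). THRB had TKFC (0.67), DPF3 (0.65) and RBP4 (0.64), and RXRG had ZNF385A (0.82), ARHGAP32 (0.81) and KCNB2 (0.80). Among the 6 genes themselves the highest values were 0.51 for DIO2 with CRYM, 0.41 for DIO2 with THRA and 0.39 for DIO3 with CRYM, and the lowest was -0.48 for DIO2 with RXRG. THRB and RXRG had 0.33.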

How the data were processed

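The authors trimmed reads with Trimmomatic 0.33, aligned them with STAR 2.4.0 to GRCh38.p7 with GENCODE 25, obtained gene counts from HTSeq 0.6, and filtered cells and genes. Per the study's methods the cell filter was not alike for all days. The minimum of reads was lower at day 60 than at day 90 and day 200. Spike-in RNA was more concentrated at day 90, and a larger share of it was allowed there. Differences between days cannot be told apart from these differences in handling. The deposited values are raw counts of reads in 24415 rows, without normalization. The GFP-Spike row was left out of library sizes. Each column held 3414268 to 7999822 gene reads.

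Clustering was modelled on the study's methods, with a later version of Seurat, its newer integration and fewer genes, and gave other clusters than the authors had: Seurat 5.3.0 under R 4.3.3, LogNormalize with a scale factor of 10000, 1000 variable genes per time point (2426 in all), CCA integration in 20 dimensions and a resolution of 0.6, without the 6 genes and the pathway list, of which 4 were among the variable genes. A cluster was named from the study's marker lists when it had at least 3 markers (2-fold after an offset of 5 CPM, reads in 20% of the cells) and 2 list genes in its top 10. These thresholds, and the separation of 2 clusters that both met the rods list, were set with the clusters in view, and the authors' own cluster names were not used here. Doublets called with scrublet in scanpy 1.11.5 were kept. Differences are of log2(CPM + 1), which understates those of low genes, and a class needed 10 cells on a chip. The steps were run with Python 3.11.15, numpy 2.4.6, scipy 1.17.1 and pandas 2.3.3 and were tested on simulated data. The genes and lists were chosen with earlier results of these data known. Some genes of the lists are not reported here. Named besides are, for each of the 6 genes, the 3 with the highest correlation.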

Additional observations from a re-analysis of the deposited data

Results flagged for a closer look

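Within classes, 3 differences between day 200 and day 60 had the opposite sign from that in Müller glia-like cells on both day 200 chips. DIO3 differed by -0.63 in the GDF15 cluster, from 22.5 CPM at day 60 to 11.3 and 17.9 on chips 200a and 200b, against 1.09 in Müller glia-like cells. CRYM differed by -2.05 in RGC-like cells, from 9.03 CPM to 0.937 and 2.03, and by -2.05 in the VSX1 cluster, from 28.6 CPM to 26.5 and 0.868, against 3.26 in Müller glia-like cells. These contrasts between classes were not tested. On 200a 1 cell held 97.8% of the CRYM reads of the VSX1 cluster.

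The GFP-Spike row, which no comparison above uses, had 0 reads at day 60 and day 90, in cone-like cells too. On the day 200 chips it reached 471 CPM in cone-like cells of chip 200a and 252 CPM in those of chip 200b, against 16.7 and 4.92 CPM in Müller glia-like cells. It was not particular to cone-like cells, with 433 and 272 CPM in rod-like cells and 248 and 54.2 CPM in the VSX1 cluster. What the row counts is not stated in the sources used here.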

How the results depend on the processing

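No paired analysis was possible because columns of different chips share only a position, so their numbers pair nothing between days. Differences between classes were already taken within each chip. Of 54 alternative values for day 200 against day 60 and 102 for cone-like against Müller glia-like cells, 49 and 83 moved by less than the spread between chips, and no mean changed sign. These counts include values that could not move by more. With a day 200 chip left out the shift is below this spread by arithmetic. Adding the GFP-Spike row to the library size changes little, since it was at most 0.0165% of the reads of a chip. The counts are therefore no measure of robustness. For day 200 against day 60, a pseudocount of 10 CPM gave 0.90 for DIO2, 0.81 for THRA and 2.48 for CRYM. THRA was 1.09 with cells of at least 150000 reads and at most 10% mitochondrial reads, and 0.84 after thinning. For cone-like against Müller glia-like cells, the pseudocount of 10 gave -3.23 for DIO3, -0.89 for DIO2 and 2.72 for RXRG, and leaving out the top cell gave -4.79, -1.31 and 4.70. Thinning gave -3.90 for DIO3 and 4.14 for RXRG. DIO3 was -3.97 as a mean over cells, -4.38 with the read filter, -3.78 with 30 dimensions and -3.95 with each cell given to its highest list. A resolution of 0.8, where the Müller glia-like class held 82 cells and 2 chips gave a value, gave -4.57 for DIO3, -1.41 for DIO2, -1.46 for THRA, 3.55 for THRB and 4.48 for RXRG. No integration gave -4.24 for DIO2 and 4.21 for RXRG. Joining the ABCB1 cluster to the glia, an alternative chosen after seeing the data, gave -4.12 for DIO3 and -4.13 for CRYM.

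Of the 25 pathway genes, 7 were higher at day 200 at 1.5-fold (14.7% of all genes), 1 at 3-fold (3.33%) and 5 with either day 200 chip left out (10.95% and 13.7% without 200a and 200b, also chosen after seeing the data), in place of 3. With chip 200b left out 2 were lower (9.65% of all genes), with chip 200a left out 0 (5.13%), and without a minimum level 1 (6.88%). In cone-like cells 2 were higher without a minimum (1.62%), 3 at 1.5-fold (5.26%) and 0 at 3-fold (1.58%), and 2 were lower at 1.5-fold (7.58%) and also with either day 200 chip left out (6.24% and 5.78%). Of the 6 genes, 1 was higher at day 200 at 3-fold, where 3.33% of all genes were, and THRB missed the count in cone-like cells only on chip 200a. The cause of these changes was not tested. The number of cone-like cells, 27 on 200b, limits the values by class.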
